A study of Homo sapiens with 4 samples.

Results

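The zinc transporters and metallothioneins were described in SK-LMS-1 cells, a human leiomyosarcoma line, with and without 2-D08, a flavone that blocks the coupling of SUMO, a small protein modifier, to other proteins. Members were chosen by gene symbol: the SLC30A and SLC39A transporter families, the metallothioneins MT1A to MT1X, MT2A, MT3 and MT4, and the metal sensor MTF1. This gave 36 of 19381 genes in the count table, namely 10 SLC30A genes, 14 SLC39A genes, 11 metallothioneins and MTF1. RNA depleted of ribosomal RNA was sequenced in 2 libraries of untreated cells and 2 libraries of cells given 50 µM 2-D08 for 48 h. Both groups are the same cell line in the same serum-containing medium, and no vehicle is stated for the untreated cells. Separate cultures are not stated for the libraries of a group, so the spread behind each p-value may be technical.

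Zinc is a cofactor of many enzymes and transcription factors, and the free pool in the cytosol is kept small. ZnT proteins, encoded by the SLC30A genes, move zinc out of the cytosol, across the plasma membrane or into organelles. ZIP proteins, encoded by the SLC39A genes, move zinc into the cytosol, and some also carry manganese or iron. Metallothioneins are short cysteine-rich proteins that bind zinc, copper and cadmium. MTF1 is a zinc finger transcription factor that senses zinc, binds metal response elements (MREs) in promoters, and drives metallothionein genes and SLC30A1.

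The promoters of 3 metallothionein genes and of SLC30A1 are printed because they carry the MRE core in very different numbers, while the RNA of these genes also differs widely. Each run is the 250 bases before the RefSeq start (GRCh38.p14), in the direction of transcription. Capitals mark the MRE core, searched as TGCACNC and TGCGCNC on both strands. These spellings differ at a single base, so a site is counted once. MT2A lies at chr16:56608334-56608583 (plus strand), MT1X at chr16:56682220-56682469 (plus), MT1H at chr16:56669564-56669813 (plus) and SLC30A1 at chr1:211579162-211579411 (minus). RefSeq and GENCODE place the starts of MT2A, MT1X and SLC30A1 at different bases.
MT2A: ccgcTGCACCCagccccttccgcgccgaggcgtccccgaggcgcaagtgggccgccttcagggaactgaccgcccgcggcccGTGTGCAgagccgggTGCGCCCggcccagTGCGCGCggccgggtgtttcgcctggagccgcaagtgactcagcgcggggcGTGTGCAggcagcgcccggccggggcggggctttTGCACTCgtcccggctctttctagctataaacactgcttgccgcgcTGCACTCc
MT1X: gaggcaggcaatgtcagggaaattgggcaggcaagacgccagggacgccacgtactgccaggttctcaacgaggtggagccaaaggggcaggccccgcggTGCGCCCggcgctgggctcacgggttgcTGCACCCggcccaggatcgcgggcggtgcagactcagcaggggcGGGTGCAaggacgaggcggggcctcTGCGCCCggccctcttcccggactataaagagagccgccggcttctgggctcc
MT1H: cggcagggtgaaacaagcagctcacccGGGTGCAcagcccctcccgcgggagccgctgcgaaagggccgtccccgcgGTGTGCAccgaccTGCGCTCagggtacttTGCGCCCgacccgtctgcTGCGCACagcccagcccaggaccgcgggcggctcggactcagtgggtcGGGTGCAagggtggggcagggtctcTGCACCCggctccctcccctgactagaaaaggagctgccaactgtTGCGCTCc
SLC30A1: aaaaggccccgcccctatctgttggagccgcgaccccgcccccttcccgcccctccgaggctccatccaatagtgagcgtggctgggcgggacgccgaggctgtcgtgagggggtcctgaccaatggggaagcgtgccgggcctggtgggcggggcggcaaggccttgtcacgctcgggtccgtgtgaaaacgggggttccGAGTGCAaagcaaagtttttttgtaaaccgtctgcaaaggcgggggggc

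RefSeq promoters matched 27 of the 36 member genes. MT1A, MT1E, MT1F, MT1G, MT1M, MT3, SLC39A14, SLC39A4 and SLC30A8 were without an entry. The core stood 7 times before MT2A, 4 times before MT1X and 8 times before MT1H, and 1 time before SLC30A1. MT1B and MT4 held it 3 times each. Of 35116 promoters of this length, 24.8% held the core at least once, 1.58% at least 3 times and 0.37% at least 4 times. Among transporters, 11 of 30 promoter entries (36.7%) held it at least once, and among the 21 matched transporter genes SLC30A2 (3) and SLC30A3 (2) held it more than once in an entry. MTF1 had no match in this window. The number of matches did not order the RNA levels given below: MT1H, with the most, had 0 counts in all 4 libraries, and MT2A had the highest level of all members. A match is only a run of letters, and binding was not measured.

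Library totals ran from 14796702 to 31300635 counts. In untreated replicate 1 and treated replicate 2, 89% and 88.8% of nonzero counts were even numbers, against 48.4% and 47.9% in the other libraries, and the totals of that pair fall to 14793238 and 15650318 when halved. The called members and MT2A are therefore also compared within the pair of libraries with mostly even counts and within the other pair. Of 6 tested smooth muscle markers, chosen because the line comes from a leiomyosarcoma, 4 were lower in treated cells by edgeR's test (adjusted p under 0.05), where 16.9% of all tested genes were lower, and the others did not pass. DES had 0 counts in all libraries. The list summed to 1014 and 1041 CPM (counts scaled to library size with TMM factors) in untreated and 587 and 678 CPM in treated cells. Immune markers summed to 61.8 and 66.4 CPM in untreated and 98.3 and 98.9 CPM in treated cells, mostly CD68, and PTPRC lay at 0.519 CPM or less. Epithelial markers summed to 339 and 299 CPM in untreated and 274 and 226 CPM in treated cells, and endothelial markers to 1.88 CPM or less in each library. Calls were not particular to smooth muscle. By the same test 3 of 5 tested epithelial markers were lower and 0 higher. Of immune markers 2 of 2 tested were higher, and of endothelial markers 1 of 2, where 17.1% of all tested genes were higher. All libraries are of the same cell line, so these lists were read as transcripts of that line. In bulk RNA, fewer cells holding a transcript and less of it per cell cannot be told apart. The part of these shifts in the results below was not tested.

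Of the 36 members, 28 had reads in at least 1 library and 21 passed the low-count filter. Levels were compared between genes per transcript length, in the deposited TPM values, which are scaled for length and depth. MT2A stood highest in untreated cells at 1155 and 1043 TPM, above 99.3% of tested genes. MT1E followed at 133 and 174 TPM. Among transporters SLC39A7, which releases zinc from the endoplasmic reticulum, lay at 104 and 91.8 TPM and SLC30A9, a mitochondrial zinc carrier, at 85.9 and 96.9 TPM, and these neighbours in the order overlapped. SLC39A6 (71 TPM, mean of 2 libraries) and SLC30A5 (58.6 TPM) came next. The plasma membrane exporter gene SLC30A1 lay low in the order, at 12.4 TPM in both untreated libraries, and SLC30A4 (4.65 TPM) and SLC39A4 (1.86 TPM) stood last. SLC39A9 and SLC30A6 overlapped, as did SLC39A8 and SLC39A13, and all other neighbours were apart in the untreated libraries. In treated cells, by mean TPM, the first 3 places were unchanged. SLC39A13 moved from the 15th to the 18th place and MTF1 from the 18th to the 15th. Some of these treated places overlapped between libraries. MT1E (107.09 and 109.2 TPM) overlapped SLC39A7 (109.71 and 96.84 TPM). SLC39A13 (12.03 and 9.09 TPM) overlapped SLC39A11 (12.15 and 10.75 TPM) and SLC30A1 (11.22 and 12.13 TPM). MTF1, at 14.37 and 14.3 TPM, was apart from SLC39A13, SLC39A11 and SLC30A1.

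**Figure D1:**
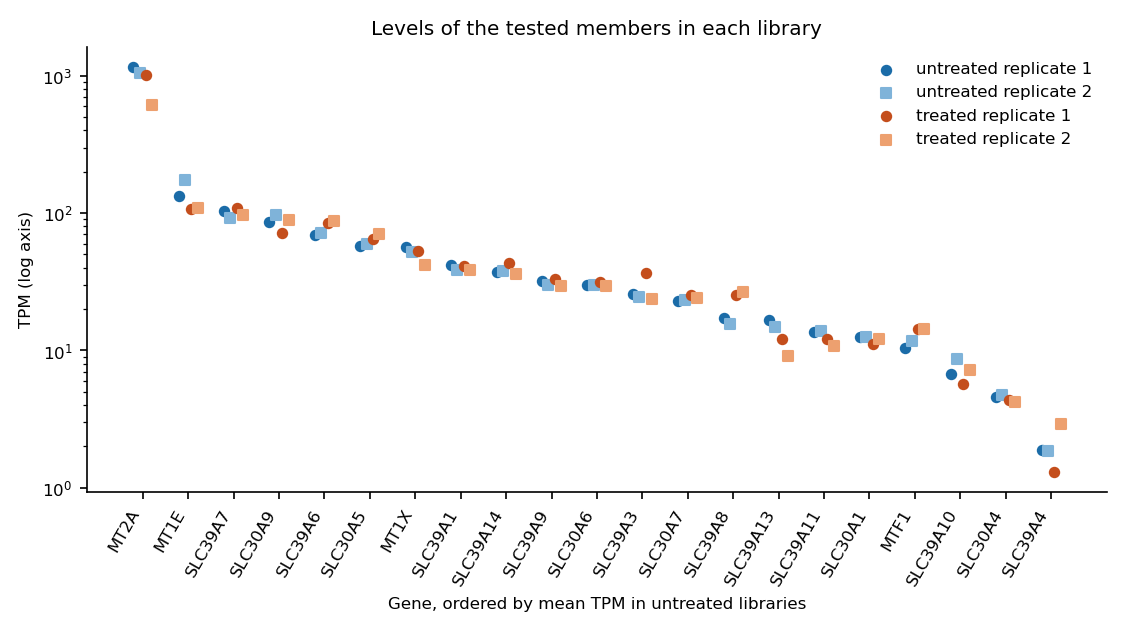
TPM (log axis) of the 21 tested members in each library, ordered by the mean of the untreated libraries; circles are replicate 1, squares replicate 2, blue untreated and orange treated. MT2A stands above all other members in every library, with treated replicate 2 lowest at 618 TPM.

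Treated and untreated cells were compared to find which of these transcripts changed with the compound. Of the SLC39A (ZIP) zinc importer genes, SLC39A8 and SLC39A6 rose and SLC39A13 and SLC39A11 fell. The metallothionein gene MT1E also fell. No transporter of the zinc-exporting SLC30A family passed the test. Changes were small: 1.57-fold for SLC39A8, 1.69-fold for MT1E, and under 1.5-fold for the other 3. By edgeR's quasi-likelihood test with Benjamini-Hochberg adjustment over 12906 genes (adjusted p under 0.05), 5 of 21 tested members were called, 2 higher and 3 lower. That is 23.8%, against a background of 33.9% of all tested genes called (17.1% higher and 16.9% lower). The median log2 fold change of the members was 0.04, against 0.00 over all tested genes. Untreated and treated libraries did not overlap in 13 of 21 members, against 67.5% of all tested genes. The 5 called members moved the same way in both pairs of libraries. Leaving out a library gave between 1 and 5 higher and between 1 and 4 lower calls: 1 and 1 without untreated replicate 1, the same without untreated replicate 2, and 5 and 2 without treated replicate 2.

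**Figure D2:**
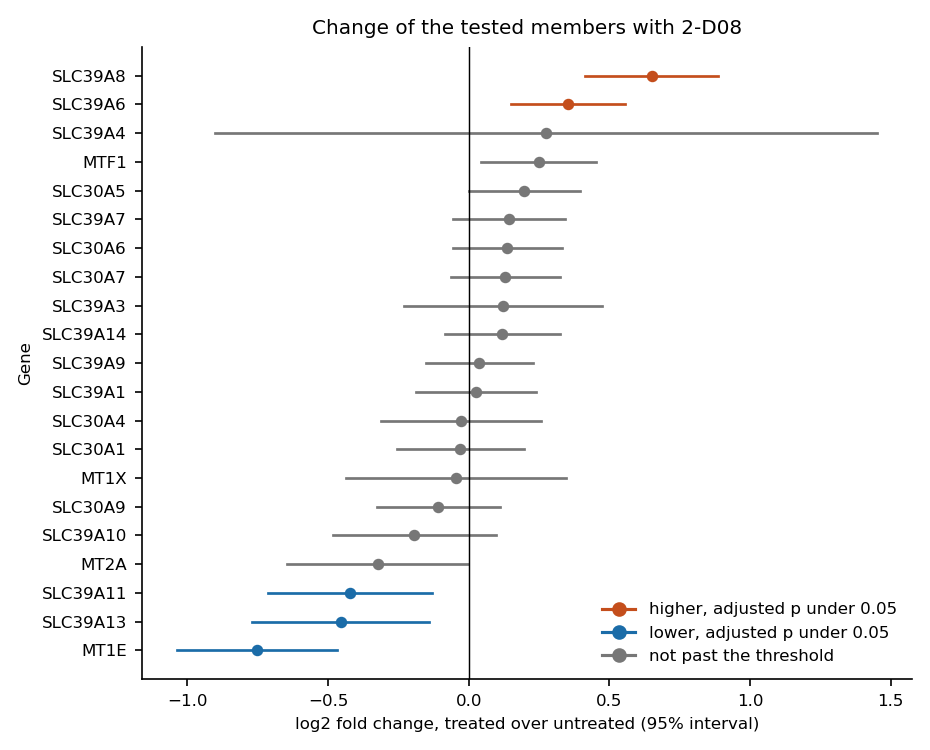
Fitted log2 fold change (treated over untreated) of the 21 tested members with 95% intervals; orange is higher and blue lower at adjusted p under 0.05, grey did not pass. Most members lie within 0.5 of 0, and the interval of the barely expressed SLC39A4 is the widest.

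Metallothioneins gave 1 lower call and 2 genes that did not pass, out of 3 tested, which is 33.3% called against 33.9% of all tested genes. The 11 genes lie in 1 cluster on chromosome 16 (56565049 to 56684196, GRCh38, GENCODE release 29), 10 on the plus and 1 on the minus strand. Reads fell on MT2A, MT1E and MT1X almost alone. MT1E (56625475 to 56627112) lay at 42.8 and 48.1 CPM in untreated cells and at 30.5 and 23.8 CPM in treated cells. Both treated libraries lay below both untreated ones. Its log2 fold change was -0.75 ± 0.13 (SE, n = 2 per group; edgeR adjusted p = 0.000723), and the log2 ratio was -0.84 within the even-count pair and -0.65 within the other. On the TPM scale MT1E was also lower, by less than in CPM within the even-count pair but not within the other. It went from 133 to 109 TPM within the even-count pair and from 174 to 107 TPM within the other. The log2 fold change was -0.49 on both log2(TPM + 1) and log2(TPM + 0.1). Neither passed limma's test (adjusted p = 0.0738 and 0.0712).

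MT2A (56608199 to 56609497) lay at 169 and 165 CPM in untreated cells and at 163 and 106 CPM in treated cells. Treated replicate 1 was close to the untreated libraries and treated replicate 2 well below them. Mean levels were 167 ± 2.98 and 134 ± 40.1 CPM (SD, n = 2 per group). The log2 fold change of -0.32 (95% interval -0.65 to 0.00) did not pass edgeR's test (adjusted p = 0.112). It was -0.05 without treated replicate 2 and -0.66 without treated replicate 1. Within the even-count pair the log2 ratio was -0.68, and within the other pair -0.02.

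MT1X (56682424 to 56684196) lay at 8.56 and 8.35 CPM in untreated and at 8.84 and 7.68 CPM in treated cells, so the groups overlapped. Its log2 fold change was -0.05 (95% interval -0.44 to 0.35; edgeR adjusted p = 0.87), and 0.06 without treated replicate 2. Whether MT1X differed in its change from MT1E was not tested.

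The summed metallothionein level was 220.8 and 221.7 CPM in untreated and 202.5 and 137.6 CPM in treated cells. Treated replicate 2 was the lowest, and the drop in mean (log2 ratio -0.38) was -0.69 without treated replicate 1 and -0.13 without treated replicate 2. With 2 libraries a group, an exact two-sided permutation test cannot give a p below 0.333. MT1E made up 19.4% (95% exact binomial interval 18.4 to 20.4, counting error only) and 21.7% (20.4 to 23.1) of metallothionein counts in untreated cells. In treated cells the share was 15.1% (13.8 to 16.4) and 17.3% (16.2 to 18.5). The share of MT1X was 3.88% and 3.77% in untreated and 4.36% and 5.58% in treated cells. If reads were counted more than once in the even-count libraries, these intervals are too narrow there. The lower share of MT1E was seen in counts only. Of metallothionein TPM it made up 9.89% and 13.7% in untreated and 9.06% and 14.2% in treated cells, which overlap.

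These genes resemble each other, and the counter's handling of shared reads is not given in the sources used here. Of the 50-base stretches of the longest coding transcript, 10.6% for MT1E, 4.88% for MT2A and 55.8% for MT1X also occurred in transcripts of another gene in GENCODE release 29. For MT1X that was 1 other gene model, AC026461.1, so its counts are the least certain of the 3. For MT1E, 1 CPM corresponded to 3.11 and 3.62 TPM in untreated and 3.51 and 4.59 TPM in treated cells, so the tables give this gene different proportions across libraries.

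**Figure D3:**
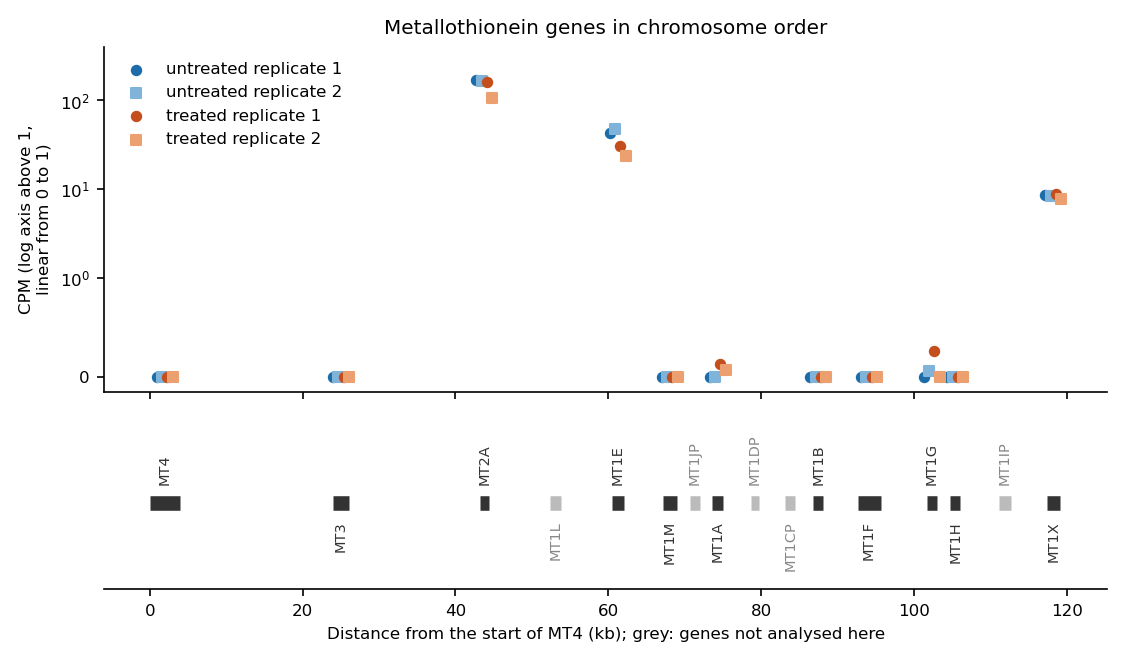
Top, CPM of each metallothionein gene in each library (log axis above 1, linear from 0 to 1); bottom, gene positions as kb from the start of MT4, with genes not analysed here in grey. Reads stand on MT2A, MT1E and MT1X, at distances of 43.2, 60.4 and 117 kb, and the genes between lie at or near 0.

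The other 8 metallothioneins held almost no reads. MT1B, MT1F, MT1H, MT1M, MT3 (a brain form) and MT4 (a form of stratified epithelia) had 0 counts in all 4 libraries, which allows up to 0.0958 to 0.203 CPM per library (3 counts, counting error only). The limits of the even-count libraries are too low if reads were counted more than once there. MT1A had 0 and 0 counts in untreated and 2 and 2 in treated cells. MT1G had 0 and 1 counts in untreated and 4 and 0 in treated cells. No fold is given at these counts. Genes under a mean of 0.1 CPM summed to 57.5 and 57.6 CPM in untreated and 178 and 158 CPM in treated cells, so scattered low reads were more frequent in the treated libraries in general.

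MTF1, the metal sensor (chromosome 1, 37809567 to 37859620), lay at 60.7 and 60.2 CPM in untreated and at 72.6 and 71.1 CPM in treated cells. The groups were apart and each pair was tight. The log2 fold change of 0.25 ± 0.10 (SE; 95% interval 0.04 to 0.45) did not pass edgeR's test (adjusted p = 0.0586). The value was 0.23 without treated replicate 1 and 0.26 without treated replicate 2. Over the alternatives that kept all libraries, the adjusted p ran from 0.00529 (edgeR with the replicate block) to 0.135 (limma on log2(TPM + 1)).

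The ZnT genes had 0 calls among 6 tested members by edgeR's test, with 1 member (SLC30A5) at an unadjusted p under 0.05. DESeq2 and limma-voom also gave 0 calls, with 0 and 1 members at an unadjusted p under 0.05. With the replicate number as a block, SLC30A5 was called higher (edgeR adjusted p = 0.0261). In the reported fit the log2 fold changes ran from -0.11 to 0.20. SLC30A1, the plasma membrane exporter and a textbook MTF1 target (chromosome 1, 211571568 to 211578742), lay at 53.2 and 54.9 CPM in untreated and at 49.5 and 55.9 CPM in treated cells. The groups overlapped, and the interval of its log2 fold change (-0.26 to 0.20; estimate -0.03) leaves out changes of 1.5-fold in either direction.

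The 3 genes of the early secretory pathway had similar small differences, none past the threshold. SLC30A5 and SLC30A6 form a heterodimer, and SLC30A7 acts in parallel to supply zinc to secreted enzymes such as alkaline phosphatases. SLC30A5 lay at 76.9 and 80.4 CPM in untreated and at 90.3 and 90 CPM in treated cells (log2 fold change 0.20, 95% interval 0.00 to 0.39; edgeR adjusted p = 0.111). SLC30A6 lay at 92.7 and 97 CPM against 104 and 104 CPM (0.14; adjusted p = 0.262 by edgeR). SLC30A7 lay at 134 and 143 CPM against 154 and 149 CPM (0.13; adjusted p = 0.284 by edgeR). In all 3 the treated libraries stood above the untreated ones. Of all tested genes, 67.5% had groups apart in either direction, and the share with treated above untreated was not counted.

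SLC30A9, the mitochondrial member, had the highest TPM of the ZnT genes, and lay at 185 and 207 CPM in untreated and at 167 and 196 CPM in treated cells. The groups overlapped (log2 fold change -0.11, edgeR adjusted p = 0.439). Without treated replicate 2 the value was -0.23, and without treated replicate 1 it was 0. SLC30A4, a transporter of endosomes and vesicles, lay at 21.8 and 23.4 CPM against 20.7 and 23.4 CPM (log2 fold change -0.03, edgeR adjusted p = 0.892). SLC30A2, known from the lactating breast, had 0 counts in all libraries. SLC30A3, of synaptic vesicles, and SLC30A10, a manganese exporter, had 1 count each, both in treated replicate 1. SLC30A8, of insulin granules, had 0 and 0 counts in untreated and 2 and 6 in treated cells. Summed ZnT levels were 564.5 and 605.2 CPM in untreated and 586.3 and 618.7 CPM in treated cells and overlapped.

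The ZIP genes held 4 of the 5 calls: 2 higher and 2 lower of 11 tested, with a median log2 fold change of 0.12. That is 36.4% called, near the 33.9% of all tested genes. SLC39A8 encodes ZIP8, a plasma membrane importer of zinc that also carries manganese (chromosome 4, 102251041 to 102431258). It lay at 33.6 and 32.2 CPM in untreated and at 48.9 and 54.3 CPM in treated cells. Both treated libraries were well above both untreated ones. This is a log2 fold change of 0.65 ± 0.11 (SE, n = 2 per group; edgeR adjusted p = 0.000555), with a log2 ratio of 0.69 within the even-count pair and 0.60 within the other. It passed the threshold in all 15 alternatives, with values of 0.56 to 0.72.

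SLC39A6 encodes ZIP6, a plasma membrane importer known as an oestrogen-regulated gene (chromosome 18, 36108532 to 36129385). It lay at 173 and 181 CPM in untreated and at 213 and 239 CPM in treated cells, and the groups were apart. The log2 fold change was 0.35 ± 0.09 (SE, n = 2 per group; edgeR adjusted p = 0.0105). Within pairs the log2 ratio was 0.46 for even-count libraries and 0.23 for the others. This call was lost with limma on the 2 TPM scales (adjusted p values 0.102 and 0.101) and without either untreated library (0.225 without replicate 1 and 0.11 without replicate 2). SLC39A10, whose protein ZIP10 pairs with ZIP6, did not pass the test and lay at 24.3 and 26.8 CPM against 20.3 and 24 CPM (log2 fold change -0.19, 95% interval -0.48 to 0.10; edgeR adjusted p = 0.286).

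SLC39A13 encodes ZIP13, an importer of the Golgi and vesicles whose loss causes a form of Ehlers-Danlos syndrome (chromosome 11, 47407132 to 47416501). It lay at 24.4 and 23.2 CPM in untreated and at 19.6 and 15.5 CPM in treated cells. Both treated libraries were below the untreated ones, treated replicate 2 furthest. The fitted log2 difference was -0.46 ± 0.15 (SE, n = 2 per group; edgeR adjusted p = 0.0276), with log2 ratios of -0.65 within the even-count pair and -0.24 within the other. The call was lost with DESeq2 (adjusted p = 0.0597), thinned counts (0.0645), both TPM scales (0.089 and 0.0873), and without untreated replicate 1 (0.234), untreated replicate 2 (0.0892) or treated replicate 2 (0.124).

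SLC39A11 encodes ZIP11, from another branch of the ZIP family (chromosome 17, 72645949 to 73092712). It lay at 22.3 and 22.8 CPM in untreated and at 17.7 and 16.1 CPM in treated cells, again without overlap. The log2 fold change was -0.42 ± 0.14 (SE; edgeR adjusted p = 0.0284), and the within-pair log2 ratios were -0.47 and -0.36. The call was lost with DESeq2 (adjusted p = 0.0702), both TPM scales (0.26 and 0.259), and without untreated replicate 1 (0.203), untreated replicate 2 (0.181) or treated replicate 2 (0.0637).

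**Figure D4:**
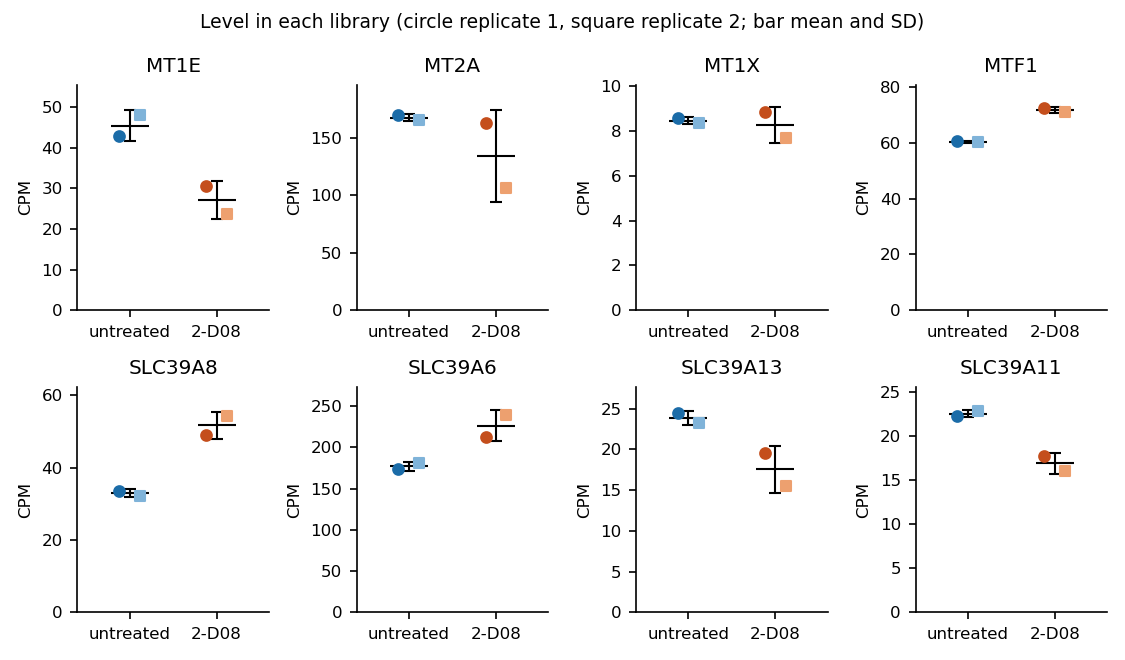
CPM of 8 members in each library (circle replicate 1, square replicate 2), with the mean and SD of each group (n = 2). The treated values of SLC39A8 lie at 48.9 and 54.3, above both untreated ones, while those of MT2A are split at 163 and 106.

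The remaining ZIP genes did not pass edgeR's test. SLC39A7, which releases zinc from the endoplasmic reticulum, lay at 146 and 138 CPM in untreated and 164 and 150 CPM in treated cells (log2 fold change 0.14, edgeR adjusted p = 0.251). SLC39A14, a carrier of zinc, iron and manganese that is closely related to SLC39A8, lay at 123 and 128 against 146 and 128 CPM (0.12; edgeR adjusted p = 0.358). Their log2 fold changes were 0.2 and 0.21 without treated replicate 2, and 0.07 and 0.02 without treated replicate 1. SLC39A9, a Golgi and plasma membrane carrier, lay at 112 and 110 CPM against 114 and 113 CPM (0.04), and SLC39A1, a plasma membrane importer, at 59.1 and 55.7 CPM against 59.3 and 57.8 CPM (0.03). SLC39A3 was uneven in treated cells, at 24.2 and 17.5 CPM against 20.3 and 17.4 CPM in untreated ones, and its log2 fold change of 0.12 was -0.12 without treated replicate 1. SLC39A4, the intestinal zinc importer, lay at 0.404 to 0.787 CPM and its interval (-0.90 to 1.45) covers changes of 1.5-fold in both directions. SLC39A5 had 3 counts in untreated replicate 2 alone, SLC39A12 had 0 to 2 counts per library, and SLC39A2 had 0 counts in all libraries. Summed ZIP levels were 738.7 and 736 CPM in untreated and 827.7 and 815.8 CPM in treated cells, without overlap (log2 ratio 0.16).

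**Figure D5:**
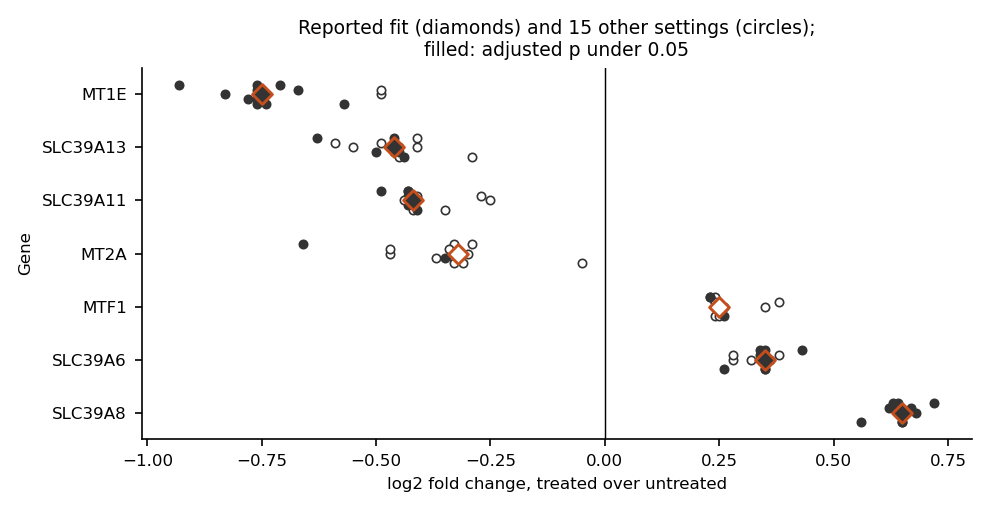
Log2 fold change of the 5 called members, MTF1 and MT2A in the reported fit (diamonds) and 15 other settings (circles); filled symbols have an adjusted p under 0.05. SLC39A8 is filled throughout, from 0.56 to 0.72, and MT2A ranges from -0.66 to -0.05.

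Other metal-handling genes were read from the same fit. Of 15 copper-handling genes tested, 3 were higher and 1 lower (median log2 fold change 0.00), or 26.7% called against 33.9% of all tested genes. COX17 (0.81 ± 0.16) and COX19 (0.76 ± 0.12, SE), which carry or support copper delivery to cytochrome oxidase in mitochondria, rose, and ATP7A, the copper exporter, fell from 63.5 and 57.9 CPM to 39.9 and 41.9 CPM (edgeR adjusted p = 0.00104). Among other metal transporters 3 were higher and 1 lower of 14 (median 0.06), or 28.6% called against the same 33.9%. The magnesium transporter gene SLC41A1 rose from 32.6 and 32.1 CPM to 51.8 and 51.3 CPM. MCOLN1, a lysosomal channel (0.65), and SLC40A1, the iron exporter ferroportin (1.31, from 0.606 to 1.47 CPM on average), also rose by edgeR's test. ATP2C2, a calcium and manganese pump listed at 1.38 and 1.09 CPM in untreated cells, had 0.266 and 0 CPM in treated cells and was called lower; its mean of 0.684 CPM over the 4 libraries puts it outside the naming rule, and it was chosen after its values were seen.

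Genes outside the family that respond to metal stress had 3 higher calls and 4 genes not past the threshold, of 7 tested (median 0.44). With 42.9% called, all in the higher direction, the list stands beside 33.9% of all tested genes called and 17.1% called higher. SQSTM1, an autophagy receptor, rose by 0.58 on the log2 scale. The chaperone genes HSPA1B (1.26) and HSPA1A (1.01) rose as well, but are near-identical copies whose separate values are uncertain. Their calls may therefore not be separate ones. TXNRD1 (0.13) and SELENOW (-0.25) did not pass edgeR's test. HMOX1, the haem oxygenase, went from 6.47 and 7.02 CPM to 9.3 and 8.95 CPM (0.44; edgeR adjusted p = 0.0801) and GCLC, of glutathione synthesis, from 34.6 and 35.7 CPM to 27.4 and 29.5 CPM (-0.30; adjusted p = 0.0591 by edgeR). Of 3 tested zinc enzymes of the secretory route, 1 was called (33.3%, against the same 33.9%): CA12, a carbonic anhydrase, fell from 26.6 and 25.5 CPM to 19.2 and 19.2 CPM (-0.44; edgeR adjusted p = 0.016). The ectoenzyme genes NT5E (0.14) and ENPP1 (0.04) did not pass, and the alkaline phosphatase genes ALPP and ALPG had 0 counts. HMOX1, GCLC, TXNRD1, SELENOW, NT5E and ENPP1 are named outside the rule, after their values were seen.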

How the data were processed

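RNA of 4 SK-LMS-1 libraries was analysed from 2 tables that the authors deposited. The submitters' processing notes name STAR 2.7.8a, cutadapt 3.4, DESeq2 and build GRCh38. The counter, its handling of strand and shared reads, and the annotation are not stated in any label. One table holds deposited whole-number read counts per gene symbol, not normalised. The other holds deposited TPM values, scaled by the authors for length and depth. The listed TPM summed to 761770 and 745964 in untreated and 741705 and 716934 in treated libraries, so the totals were unequal. They were not rescaled. A further table of transformed values was not used here. No value column lacked a mapped sample.

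Counts were filtered with filterByExpr (minimum count 10), scaled with TMM factors, and compared between groups with edgeR 4.0.16's quasi-likelihood test (robust, two-sided, R 4.3.3) with Benjamini-Hochberg adjustment over 12906 genes. Standard errors and 95% intervals were derived from the F statistic. Library-pair log2 ratios used CPM + 0.1. Alternatives used limma 3.58.1 and DESeq2 1.42.0. The test was checked on simulated counts with 200 changed genes and a common dispersion. It recovered 65.7% of 1.5-fold, 80.3% of 2-fold and 100% of 4-fold changes, and 4.65% of calls were false. The simulation had fewer changed genes than the 4376 called here and did not mimic even counts. It therefore does not measure the power in these data. Positions come from GENCODE release 29 and promoters from RefSeq GRCh38.p14.

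Members with a mean of at least 1 CPM or a call are named with every library's value, and, from each other list, up to 3 called genes with the smallest p and a mean of at least 1 CPM. Members, lists and most alternatives were chosen with earlier results of these data known.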

Additional observations from a re-analysis of the deposited data

How the results depend on the processing

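Over 15 alternatives the 5 calls among members kept their direction, and all 5 stayed past the threshold with limma-voom, halved even counts, RLE factors, no scaling factors, no low-count filter, a minimum mean of 5 CPM, the replicate block and without treated replicate 1. With DESeq2 1 member was lower. With limma on log2(TPM + 1) 1 member was higher and 0 lower (3 and 2 at an unadjusted p under 0.05), with 1598 of all genes changed; on log2(TPM + 0.1) the counts were again 1 and 0 (3 and 2 unadjusted), with 1608 genes changed; the cause was not tested. Fits without 1 library assume that the lone library varies as the other group does, and gave 1866 to 6077 changed genes (fewest without untreated replicate 1, 2695 without untreated replicate 2), 1 to 5 members higher, 1 to 4 lower, a member median of 0.02 to 0.05 and a summed metallothionein log2 ratio of -0.69 to -0.13. Nothing states that a shared replicate number pairs libraries, and their deviations correlated at 0.16 over 12906 genes and at 0.40 over the 10502 averaging 5 CPM or more. With the replicate number as a block 4 members were higher and 4 lower, adding MT2A, MTF1 and SLC30A5, and 6239 genes changed. The member median was 0.11 with no low-count filter, where 28 members entered and the median over all genes was 0.06. Added after seeing the data, it was 0.05 within the even-count pair and 0.08 within the other pair. Of members not past the threshold, SLC39A1 was -0.01 on both TPM scales. Values that crossed 0 when a library was left out ran from -0.02 to 0.07 for SLC39A1, -0.14 to 0.06 for MT1X, -0.13 to 0.05 for SLC30A1, -0.13 to 0.05 for SLC30A4, -0.12 to 0.34 for SLC39A3 and -0.21 to 0.73 for SLC39A4.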
